A study of Mus musculus with 4 samples.

Results

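E proteins and their Id inhibitors are a small family of helix-loop-helix transcription regulators, and 6 of their genes were followed here: Tcf3 (which encodes E2A), Tcf4 (E2-2), Tcf12 (HEB), Id1, Id2 and Id3. They were chosen by name, as the gene rows with these symbols, and make up 6 of the 32272 genes in the matrix. Their chromatin was followed in open chromatin peaks within 50 kb of the interval listed for each gene with the matrix, 169 of 174339 peaks. For Tcf4 and Tcf12 this interval stops more than 50 kb short of the annotated gene end, so that end lies outside the window. The rule used names and positions, not measured values. Tcf7 and other genes with similar symbols are not members of the family and were left out.

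E proteins bind DNA as dimers at short motifs called E-boxes, through a basic region next to the helix-loop-helix. Id proteins carry the helix-loop-helix without the basic region, so they pair with E proteins and keep them off DNA. In bone marrow, E2A and HEB are known for starting B lymphocyte development, E2-2 for forming plasmacytoid dendritic cells, and Id2 for innate lymphoid cells and conventional dendritic cells. In the erythroid and megakaryocytic lineages E proteins pair with the tissue-restricted factor Tal1.

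The nuclei came from sorted Lin-cKit+ bone marrow cells, which include the stem and progenitor cells (HSPCs). Multiome sequencing reads both the RNA of a nucleus, as unique molecular identifiers (UMIs), and its open chromatin (ATAC). The mice were C57BL/6 wild type males of 8 weeks without any transgene or deletion. One group carried a silk ligature around molars for 14 days as a model of periodontitis (Lig) and the other stayed untreated for the same 14 days (Ctrl). The labels give 4 samples, the RNA and the ATAC library of each group, so every group is 1 sample, and that sample pooled the marrow of 5 mice per the methods of the study. Nuclei of both samples lie in 1 matrix under barcode suffixes 1 and 2, which no label ties to a group. They are called library 1 and library 2 here, were assigned to no group, and no comparison of ligature with control was made.

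After filtering, 13619 nuclei remained of 18961 barcodes, 5905 in library 1 and 7714 in library 2. A total of 72 barcode sequences occurred in both libraries and were kept. Library 1 held 5864583 UMIs and library 2 held 5872916 UMIs outside a ribosomal RNA locus that took 43.0% and 53.2% of all UMIs. RNA levels are UMIs scaled to 1000000 UMIs outside that locus (CPM), and accessibility is peak counts scaled to 1000000 peak counts (RPM). Distances to peaks run from the nearest annotated start of the gene, with upstream negative. Nuclei were clustered without the 6 genes and without their 169 peaks. Of 20 clusters, 12 matched a fixed marker list and were named, among them HSC-like stem cells, pro-B-like, GMP-like (granulocyte-monocyte progenitor), NeuP-like (neutrophil progenitor), EryP-like (erythroid), MkP-like (megakaryocyte), BaP-like (basophil), cMoP-like (monocyte), cDCP-like and pDCP-like (conventional and plasmacytoid dendritic) and pro-NK/T-like nuclei. The other 8 are called by a pair of their leading genes. B cell-like nuclei, named by raised Ms4a1, Bank1, Cd22 and Ighd, were present although lineage-marked cells had been sorted out.

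With 1 sample per group there is no test. A difference was counted when a lineage lay at least 2-fold above or below all other nuclei in both libraries on the log2(CPM + 1) scale. Values are given as library 1 and library 2 in that order. Intervals are 95% intervals and cover counting error only, not the spread between mice. Peak values are given without intervals. Small lineages held few peak counts, such as 1123173 and 447065 in pDCP-like nuclei, so low RPM values and 0 counts there are uncertain. Of the 8487 genes that averaged 10 CPM or more, 21.4% were higher and 34.9% were lower in at least 1 of the 14 lineages with 100 or more nuclei in each library. Tcf3, Tcf4, Tcf12 and Id2 passed that minimum. Id1 (mean 1.99 CPM) and Id3 (mean 3.99 CPM) did not and are given as UMI counts.

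Tcf3 RNA was highest in the B lymphoid lineages and lower elsewhere. The Cacna2d1/Kcnh8 cluster, which stayed unnamed under the naming rule although all 9 pro-B markers were raised in it, held 241 CPM (34 UMIs) and 171 CPM (9 UMIs). Pro-B-like nuclei held 184 CPM (167 UMIs) and 147 CPM (43 UMIs), and B cell-like nuclei held 184 CPM (20 UMIs) and 86.4 CPM (3 UMIs). The highest value elsewhere was 127 CPM, in the Rab5b/Cmtm3 cluster in library 1. Over all other nuclei, the log2 ratio was 1.33 and 1.43 in pro-B-like nuclei, where 4.11% of all genes were higher by the same measure, and 1.48 and 1.56 in the Cacna2d1/Kcnh8 cluster, where 5.77% were. With at least 500 genes per nucleus, the pro-B-like value in library 2 was 0.85 and the Cacna2d1/Kcnh8 value in library 2, from the 6 nuclei left there, was -5.83. No Tcf3 UMI was left in these 6 nuclei, so a lower level was not detectable. The intervals of pro-B-like nuclei lay above those of 8 other lineages in both libraries. Neighbours in the order of levels, the first 4 included, overlapped in at least 1 library. In cDCP-like nuclei only 2 and 0 UMIs of Tcf3 were found, a level below the 2-fold limit, as for 11.1% of all genes there, but the limit that a count of 0 allows in library 2, 48.5 CPM, was close to the 59.2 CPM of the other nuclei.

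Tcf3 lies on the minus strand of chromosome 10 (chr10:80409514-80433647, GRCm38), has 11 distinct annotated start sites and had 16 peaks in its window, all of which passed the minimum of 1 RPM. Its promoter peak at the gene start averaged 75.9 RPM and was called in none of the 14 lineages, so it was open in lineages with and without raised Tcf3 RNA. Accessibility that followed the B lineage lay in an intron and upstream of the gene. The intron peak, 0.995 kb downstream of the nearest annotated start, held 51.9 and 36.9 RPM in the Cacna2d1/Kcnh8 cluster, 27.9 and 28.9 RPM in B cell-like nuclei and 27.5 and 20.9 RPM in pro-B-like nuclei. The highest value in any other lineage was 2.22 RPM, in the Cmah/Mn1 cluster in library 1, and BaP-like and pro-NK/T-like nuclei held 0 counts in both libraries. The upstream peak at -9.6 kb held 21.03 and 28.9 RPM in B cell-like nuclei, 17.6 and 15.1 RPM in the Cacna2d1/Kcnh8 cluster and 13.1 and 11.5 RPM in pro-B-like nuclei, while pDCP-like nuclei held 11.6 and 4.47 RPM. An internal start site had a peak of another kind, with 7.78 and 8.30 RPM in EryP-like nuclei and 4.30 and 2.04 RPM in MkP-like nuclei, and 0 counts in pDCP-like nuclei. In pDCP-like nuclei of library 2 a count of 0 allows up to 16.5 RPM, so a lower level was not detectable there.

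The central 300 bases of these 3 Tcf3 peaks are shown because they were the Tcf3 peaks called in at least 1 of the 14 larger lineages. Other Tcf3 peaks were called in smaller lineages alone. They are read from the RefSeq genome sequence of GRCm38 on the plus strand. Capitals mark the E-box letters CAGCTG or CAGGTG and the GATA letters AGATAA, on either strand, and the intron peak holds none of them in this window.
Tcf3 intron peak of the B lineage, chr10:80429840-80430139: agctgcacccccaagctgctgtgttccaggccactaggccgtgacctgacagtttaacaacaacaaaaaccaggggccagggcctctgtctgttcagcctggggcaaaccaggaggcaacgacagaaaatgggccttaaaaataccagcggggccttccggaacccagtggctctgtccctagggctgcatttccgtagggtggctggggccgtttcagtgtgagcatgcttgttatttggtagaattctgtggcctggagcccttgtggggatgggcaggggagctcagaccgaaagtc
Tcf3 upstream peak of the B lineage, chr10:80443097-80443396: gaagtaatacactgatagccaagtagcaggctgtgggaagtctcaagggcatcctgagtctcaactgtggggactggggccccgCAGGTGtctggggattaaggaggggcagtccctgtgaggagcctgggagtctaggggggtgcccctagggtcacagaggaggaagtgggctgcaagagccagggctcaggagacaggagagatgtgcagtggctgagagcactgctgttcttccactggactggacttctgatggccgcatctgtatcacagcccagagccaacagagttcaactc
Tcf3 internal start peak of EryP-like nuclei, chr10:80421767-80422066: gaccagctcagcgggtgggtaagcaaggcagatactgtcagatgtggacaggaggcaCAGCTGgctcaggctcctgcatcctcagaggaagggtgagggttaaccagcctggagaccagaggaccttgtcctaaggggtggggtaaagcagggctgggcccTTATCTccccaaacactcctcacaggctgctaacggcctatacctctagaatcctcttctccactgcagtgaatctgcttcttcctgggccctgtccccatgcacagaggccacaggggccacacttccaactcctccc
The upstream peak holds 1 CAGGTG, and the internal start peak holds 1 CAGCTG together with 1 GATA match, read here as TTATCT on the plus strand. Motif matches are a description of letters, not of bound factors.

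Tcf4 RNA set the pDCP-like nuclei apart more than any other lineage. These 62 and 31 nuclei held 5852 CPM (294 UMIs, interval 5202 to 6560) and 3127 CPM (57 UMIs, interval 2368 to 4051). Over all other nuclei the level was 10.3-fold (interval 9.15 to 11.7) and 9.45-fold (interval 7.13 to 12.3) higher, and the interval lay above those of all 19 other lineages in both libraries. With at least 500 genes per nucleus the log2 ratio in library 2 was 1.60, from the 3 nuclei left there. In pDCP-like nuclei, 3.86% of all genes were higher by the 2-fold rule. The Cacna2d1/Kcnh8 cluster came next with 1661 and 1162 CPM, and its log2 ratio of 1.504 and 1.80 also passed, while it was 0.80 in library 2 with at least 500 genes per nucleus. The Cmah/Mn1 cluster held 1014 and 823 CPM, pro-B-like nuclei 989 and 689 CPM, and the Clec9a/Epha2 cluster 843 and 542 CPM. These 3 lineages were above the other nuclei in both libraries and below the 2-fold limit in at least 1 of them, with 0.87 and 1.10 on the log2 scale in pro-B-like nuclei.

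The low end of the Tcf4 order held NeuP-like, GMP-like and cMoP-like nuclei and, next to them, the Tnr/Tmem178 cluster (247 and 194 CPM) and the Ednrb/Nrg1 cluster, each overlapping its neighbour in at least 1 library. GMP-like nuclei held 196 and 146 CPM (71 and 88 UMIs), a log2 ratio of -1.70 and -1.31, and 4.57% of all genes were lower there. NeuP-like nuclei held 132 and 177 CPM and cMoP-like nuclei 178 and 183 CPM, with intervals that overlapped those of GMP-like nuclei in both libraries. HSC-like nuclei stood between these ends with 483 and 417 CPM, above GMP-like nuclei beyond the counting error in both libraries. After thinning each nucleus to 1000 UMIs, the share of nuclei with a Tcf4 UMI was 84.1% and 55.6% in pDCP-like nuclei, 40.2% and 25.4% in pro-B-like nuclei and 10.4% and 6.36% in GMP-like nuclei. Without thinning these shares were 93.5% and 71.0%, 60.05% and 36.8%, and 15.2% and 10.5%, at median depths of 1202 and 1116, 1834 and 1455, and 1644 and 1574.5 UMIs per nucleus. Thinning left out 18 and 13 pDCP-like nuclei that were shallower.

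Tcf4 occupies 346 kb of the plus strand of chromosome 18 (chr18:69343356-69689079, GRCm38) with 58 distinct start sites. Of the 50 peaks in its window, 40 were tested. The listed interval ends at 69612444, so the last part of the gene was not covered. Its promoter peak at the first start averaged 37.0 RPM and was called in none of the 14 lineages. Peaks at internal starts and in introns were open in the B lineage. The peak at -0.104 kb from an internal start held 33.7 and 35.4 RPM in the Cacna2d1/Kcnh8 cluster, 23.7 and 20.9 RPM in B cell-like nuclei and 15.9 and 17.9 RPM in pro-B-like nuclei. The highest value in any other lineage was 4.47 RPM, in pDCP-like nuclei in library 2. These nuclei held 447065 peak counts in all, so this value rests on few counts. At another internal start, the peak at -0.124 kb held 38.0 and 39.3 RPM in pro-B-like nuclei and 48.6 and 24.1 RPM in the Cacna2d1/Kcnh8 cluster. This peak was chosen after its values were seen.

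The pDCP-like nuclei, with the highest Tcf4 RNA, had few called peaks in the Tcf4 window. An intron peak at -15.453 kb held 7.12 and 13.4 RPM in pDCP-like, 8.81 and 10.4 RPM in cDCP-like and 11.6 and 7.66 RPM in cMoP-like nuclei, and 0 counts in pro-NK/T-like nuclei. Another intron peak, 7.02 kb downstream of a start, held 12.5 and 13.4 RPM in pDCP-like nuclei. Both were chosen after their values were seen, and in pDCP-like nuclei both rest on few counts. They were the 2 of the 40 tested Tcf4 peaks (5%) that were higher in pDCP-like nuclei, beside 3.47% of all peaks, and 4 of the 40 (10%) were lower, beside 21.7% of all peaks. Both shares say little about Tcf4 in particular. The peak at -0.104 kb, open in the B lineage, held 1.78 and 4.47 RPM in pDCP-like nuclei.

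Tcf12 RNA met the 2-fold rule in 1 lineage. NeuP-like nuclei held 193 CPM (19 UMIs) and 91.6 CPM (16 UMIs), a log2 ratio of -1.41 and -1.31, where 10.9% of all genes were lower. With at least 500 genes per nucleus the call was lost, at -0.26 and -0.60 with 26 and 35 nuclei left. The level was 709 and 334 CPM in pro-B-like nuclei, 760 and 283 CPM in pro-NK/T-like nuclei, and 1353 CPM (68 UMIs) and 329 CPM (6 UMIs) in pDCP-like nuclei. In library 1 the pDCP-like interval, 1051 to 1716 CPM, lay above those of the 19 other lineages, whereas in library 2 its interval, 121 to 716 CPM, overlapped those of all 19. Among nuclei with at least 1000 UMIs, thinned to 1000, 6.58% and 3.14% of NeuP-like nuclei had a Tcf12 UMI against 31.6% and 15.1% of pro-B-like nuclei. Unthinned shares were 9.44% and 4.92% against 50.1% and 21.5%, at NeuP-like median depths of 917 and 1249 UMIs. Thinning thus left out a large part of the NeuP-like nuclei of library 1. The thinned UMIs included the ribosomal locus, which took 53.4% and 60.7% in NeuP-like against 40.8% and 53.3% in pro-B-like nuclei.

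Tcf12 lies on the minus strand of chromosome 9 (chr9:71842688-72111871, GRCm38) and spans 269 kb. Its promoter peak averaged 32.2 RPM and was called in none of the 14 lineages, and 26 of the 39 peaks in its window were tested. Single intron peaks differed in the lineages in which they were open. One 24.2 kb downstream of the nearest start held 16.4 and 15.8 RPM in the Cacna2d1/Kcnh8 cluster and 13.8 and 15.5 RPM in pro-B-like nuclei, with 0 counts in cDCP-like and cMoP-like nuclei. One 9.47 kb downstream held 23.9 and 17.0 RPM in pro-NK/T-like nuclei and 15.2 and 12.8 RPM in B cell-like nuclei, and was also higher in pro-B-like nuclei at 5.64 and 4.63 RPM. One at -36.848 kb held 9.23 and 10.5 RPM in EryP-like and 3.91 and 5.09 RPM in MkP-like nuclei. One 20.6 kb downstream ran the other way, with 1.40 and 2.40 RPM in pro-B-like against 16.2 and 17.1 RPM in GMP-like nuclei. The peaks at 9.47 kb and -36.848 kb were chosen after their values were seen.

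**Figure D1:**
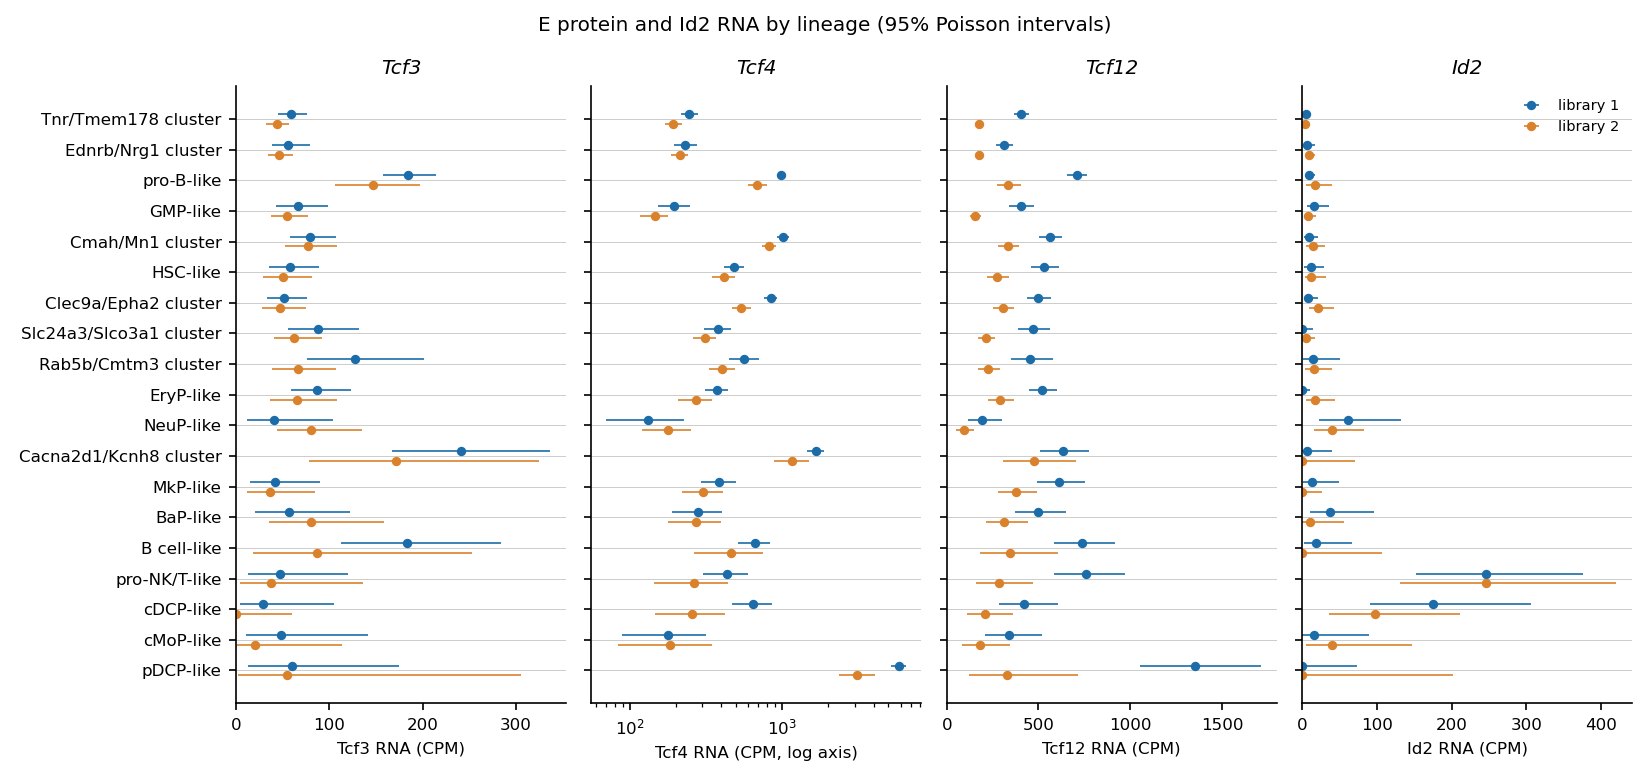
RNA level of Tcf3, Tcf4, Tcf12 and Id2 in CPM for 19 lineages, with library 1 in blue and library 2 in orange and 95% Poisson intervals of the UMI counts. The Tcf4 axis is logarithmic. Tcf4 reached 5852 and 3127 CPM in pDCP-like nuclei and Id2 reached 246 CPM in both libraries in pro-NK/T-like nuclei.

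Id2 was the one Id gene with enough RNA for a comparison, and its RNA was highest in pro-NK/T-like and cDCP-like nuclei. Pro-NK/T-like nuclei held 246 CPM in each library (21 and 13 UMIs), against 11.4 and 11.9 CPM in all other nuclei. This was 21.5-fold (interval 12.5 to 35.6) and 20.7-fold (interval 10.5 to 37.8) higher, and 4.51% of all genes were higher there. On the log2 scale the values were 4.31 and 4.26, against 2.94 in library 2 with at least 500 genes per nucleus and 3.58 in library 1 with a pseudocount of 10. cDCP-like nuclei held 175 CPM (12 UMIs) and 96.9 CPM (6 UMIs), 13.5-fold (interval 6.69 to 25.1) and 7.41-fold (interval 2.64 to 16.9) higher, where 3.64% of all genes were higher. NeuP-like nuclei held 61.0 CPM (6 UMIs) and 40.1 CPM (7 UMIs), a log2 ratio of 2.04 and 1.54, where 4.04% of all genes were higher. With at least 500 genes per nucleus the library 2 value turned to -3.74, with 35 nuclei left. No Id2 UMI was left in these 35 nuclei, so a lower level was not detectable. The intervals of pro-NK/T-like nuclei lay above those of 15 lineages in both libraries but overlapped those of cDCP-like nuclei, and cDCP-like overlapped NeuP-like nuclei.

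At the other end, the Tnr/Tmem178 cluster held 5 UMIs of Id2 in each library, 5.07 and 4.08 CPM, a log2 ratio of -1.55 and -1.79, where 4.18% of all genes were lower. The Slc24a3/Slco3a1 cluster held 0 and 2 UMIs. It also met the 2-fold rule, as did 2.69% of all genes, but the limit that 0 UMIs allows in library 1 was 11.5 CPM, against 15.5 CPM in the other nuclei. In pDCP-like nuclei, where 20.1% of all genes were lower, no Id2 UMI was found in either library. At their depth a count of 0 allows 59.7 and 164.6 CPM, above the level of the other nuclei, so a lower Id2 level was not detectable there. After thinning to 1000 UMIs, 11.1% and 11.5% of pro-NK/T-like nuclei had an Id2 UMI against 0.843% and 0.888% of pro-B-like nuclei, a lineage that is known to have little Id2. Unthinned shares were 15.5% and 11.1% against 0.993% and 1.28%, at median depths of 1153.5 and 1066 against 1834 and 1455 UMIs. UMIs of genes of other lineages were found in every cluster. The granule gene Mpo stood, as the mean of both libraries, at 725 CPM in pro-B-like and 1196 CPM in pro-NK/T-like nuclei against 5778 CPM in GMP-like nuclei, and the part of such RNA in the Id2 shares was not tested.

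Id2 lies on the minus strand of chromosome 12 (chr12:25093799-25097140, GRCm38), and its 14 peaks all passed the minimum. The promoter peak averaged 30.2 RPM and was called in none of the 14 lineages, with 66.2 and 51.7 RPM in NeuP-like nuclei and 41.5 and 48.2 RPM in pro-NK/T-like nuclei. The upstream peak at -1.741 kb held 35.6 and 37.8 RPM in pro-NK/T-like and 32.3 and 27.6 RPM in cDCP-like nuclei, the lineages with the most Id2 RNA, against 13.5 and 13.4 RPM in pro-B-like nuclei. NeuP-like nuclei, the next in Id2 RNA, held 16.4 and 15.0 RPM there. The peak was chosen after its values were seen. A peak at -22.392 kb was higher in other lineages, with 39.8 and 27.4 RPM in HSC-like, 25.8 and 36.7 RPM in MkP-like and 30.1 and 27.8 RPM in Slc24a3/Slco3a1 nuclei. In these lineages Id2 RNA was 0 to 13.8 CPM.
The central 300 bases of the peak at -1.741 kb from Id2 are shown because this peak was most open in the lineages with the highest Id2 RNA. They hold 1 CAGGTG and 1 CAGCTG, in capitals (RefSeq sequence of GRCm38, plus strand).
Id2 upstream peak, chr12:25098731-25099030: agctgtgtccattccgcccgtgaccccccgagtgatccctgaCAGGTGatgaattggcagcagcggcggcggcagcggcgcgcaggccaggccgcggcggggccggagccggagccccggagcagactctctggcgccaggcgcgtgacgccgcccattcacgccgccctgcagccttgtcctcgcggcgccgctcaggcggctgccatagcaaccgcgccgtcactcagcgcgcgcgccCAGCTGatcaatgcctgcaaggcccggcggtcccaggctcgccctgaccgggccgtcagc

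Id3 RNA was sparse, with 26 and 11 UMIs in all, of which 10 and 4 lay in pro-B-like nuclei (11.02 and 13.6 CPM) and 2 and 1 in the Cacna2d1/Kcnh8 cluster. Id3 lies on the plus strand of chromosome 4 (chr4:136143497-136145755, GRCm38), and its chromatin could be read with more counts than its RNA. Its promoter peak held 53.8 and 55.3 RPM in pro-B-like nuclei, a log2 ratio of 1.07 and 1.22, and 11.7 and 11.6 RPM in NeuP-like nuclei, a log2 ratio of -1.27 and -1.05. pDCP-like nuclei, with 0 UMIs of Id3, held 49.9 and 53.7 RPM at the same peak. Distal peaks at -42.933 kb and -15.563 kb were also higher in pro-B-like nuclei, with 10.6 and 11.03 RPM and with 8.37 and 6.07 RPM, the second of them chosen after its values were seen. Other peaks of the gene went the other way in pro-B-like nuclei, with log2 ratios of -1.95 and -1.88 at -26.259 kb and of -2.35 and -2.69 at 40.633 kb, the latter also chosen after its values were seen and overlapping the neighbouring gene E2f2. The peak 45.0 kb downstream, which was likewise chosen after its values were seen, overlaps E2f2 as well and held 24.1 and 27.6 RPM in EryP-like nuclei.

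Id1 was nearly absent from the RNA, with 5 and 13 UMIs in all and at most 2 in any lineage and library. It lies on the plus strand of chromosome 2 (chr2:152736251-152737410, GRCm38). Its promoter peak was higher in NeuP-like nuclei, at 39.8 and 30.1 RPM and a log2 ratio of 1.62 and 1.04. A peak 5.48 kb downstream of the start was lower in 5 of the 14 lineages, with 5.00 and 6.23 RPM in pro-B-like and 4.86 and 6.03 RPM in Cacna2d1/Kcnh8 nuclei against 54.0 and 50.6 RPM in the Ednrb/Nrg1 cluster.

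Of the 56 pairs of a tested gene and 1 of the 14 lineages with at least 100 nuclei in each library, 8 met the 2-fold rule, 14.3% beside 6.9% of such pairs over all genes. Over the 19 lineages with at least 30 nuclei, 13 of 76 pairs did, 17.1% beside 9.62%. Of these 13, Tcf3 in cDCP-like nuclei, Id2 in the Slc24a3/Slco3a1 cluster and Id2 in pDCP-like nuclei rest on 0 to 2 UMIs per library, and for the last a lower level was not detectable.

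The Id share was read as the UMIs of Id1, Id2 and Id3 among the UMIs of all 6 genes, a ratio within the same nuclei that scaling does not change. It is a share of nuclear UMIs and not of protein, and the long genes Tcf4 and Tcf12 weigh heavily in it. In all nuclei it was 1.63% and 2.81%. It reached 16.5% (21 of 127 UMIs, interval 10.5% to 24.2%) and 29.5% (13 of 44 UMIs) in pro-NK/T-like nuclei. In cDCP-like nuclei it was 13.8% (12 of 87 UMIs) and 17.1% (6 of 35 UMIs). In NeuP-like nuclei it was 16.3% (7 of 43 UMIs, interval 6.81% to 30.7%) and 12.9% (9 of 70 UMIs, interval 6.05% to 23.0%). Pro-B-like nuclei stood at 1.04% and 2.56%. In pDCP-like nuclei 0 of 365 and 0 of 64 UMIs came from an Id gene, with interval ends of 1.01% and 5.60%. Against Tcf3 alone, the share was 84.0% and 86.7% in pro-NK/T-like, 63.6% and 39.1% in NeuP-like, and 9.73% and 17.3% in pro-B-like nuclei. In all nuclei it was 18.3% and 23.6%.

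**Figure D2:**
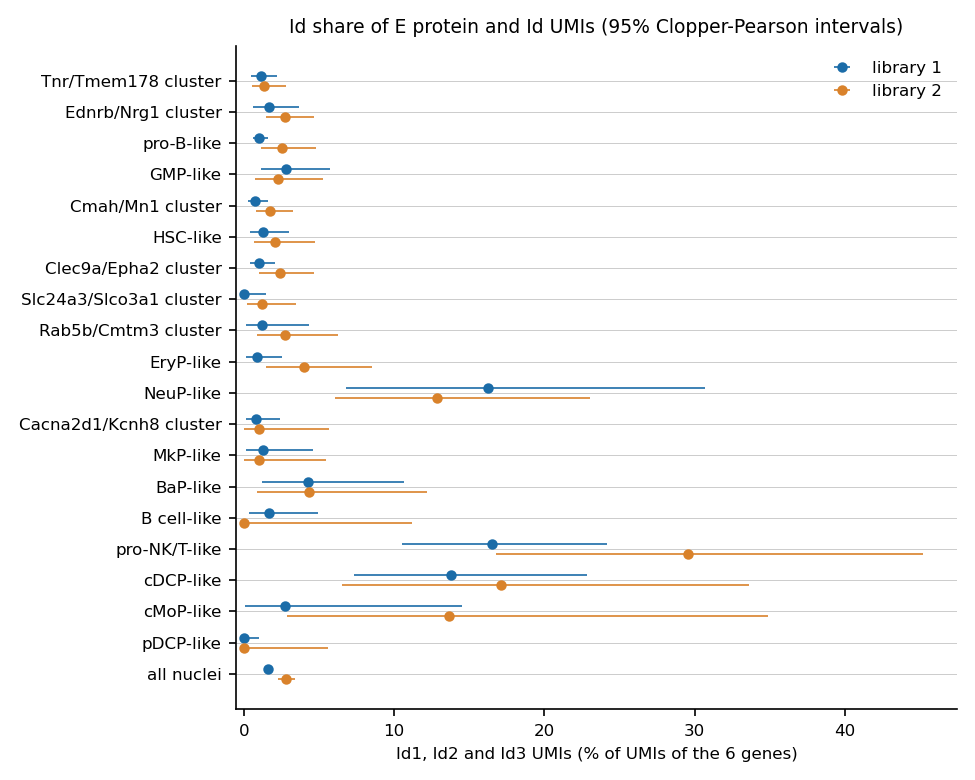
Id1, Id2 and Id3 UMIs as a percent of the UMIs of all 6 genes in 19 lineages and in all nuclei, with library 1 in blue, library 2 in orange and 95% Clopper-Pearson intervals. Pro-NK/T-like (16.5% and 29.5%), cDCP-like (13.8% and 17.1%) and NeuP-like nuclei (16.3% and 12.9%) stand to the right of all nuclei (1.63% and 2.81%) in both libraries.

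The make-up of the E protein UMIs also differed between lineages. Tcf4 gave 80.5% and 89.1% of them in pDCP-like nuclei, 65.5% and 64.2% in the Cacna2d1/Kcnh8 cluster and 29.5% and 41.1% in GMP-like nuclei, against 50.4% and 54.5% in all nuclei. Across the 14 lineages with at least 100 nuclei, the log2 levels of Tcf4 and Tcf12 had a mean Pearson r of 0.777, those of Tcf3 and Tcf4 one of 0.662 and those of Tcf3 and Tcf12 one of 0.431. These lineages share their libraries and depth, so r is a description.

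Among the 145 tested peaks of the 6 genes, 69 were called in at least 1 of the 14 lineages, beside 51.4% of all tested peaks. In pro-B-like nuclei 19 of the 145 peaks were higher, 13.1%, beside 5.03% of all peaks. They were 6 peaks of Tcf4, 5 each of Tcf12 and Id3, 2 of Tcf3, 1 of Id1 and none of Id2. In the Cacna2d1/Kcnh8 cluster 15 were higher, 10.3% beside 4.73%, and in B cell-like nuclei 13, 8.97% beside 2.59%. Lower peaks were also found in these lineages, 8 in pro-B-like nuclei (5.52% beside 13.8% of all peaks), 14 in the Cacna2d1/Kcnh8 cluster (9.66% beside 19.7%) and 15 in B cell-like nuclei (10.3% beside 23.3%). The other lineages were nearer to the background in higher peaks. In pDCP-like nuclei 3 were higher (2.07% beside 3.47%), in EryP-like nuclei 5 (3.45% beside 3.69%), in pro-NK/T-like nuclei 5 (3.45% beside 2.87%) and in the Cmah/Mn1 cluster 0 (beside 1.79%). In NeuP-like nuclei 13 were lower, 8.97% beside 13.2% of all peaks. Of these 13, 7 belonged to Tcf4, which is 17.5% of its 40 tested peaks. Neighbouring peaks of 1 gene are not independent of each other.

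**Figure D3:**
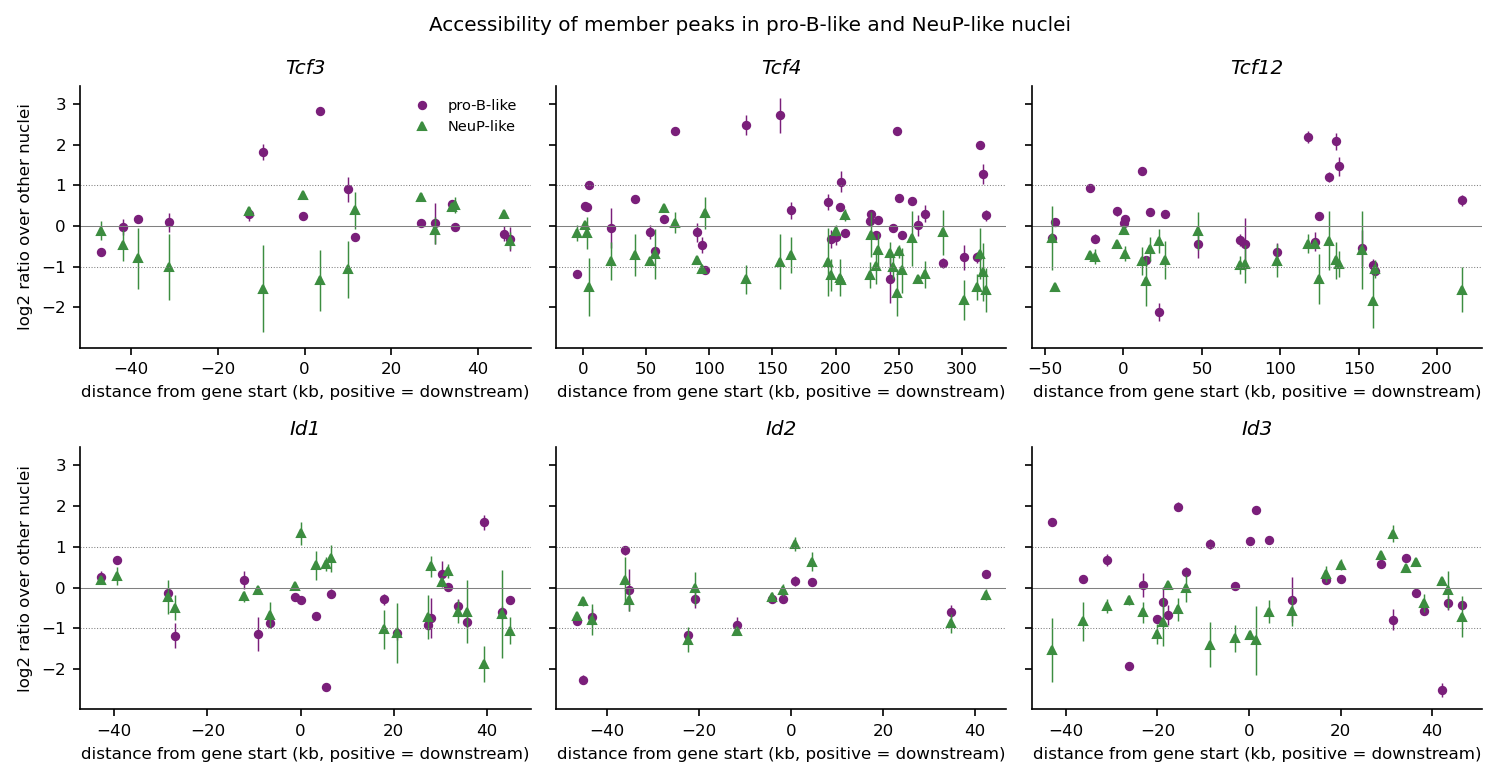
Log2 ratio of accessibility over all other nuclei for each tested peak (vertical axis) against its distance from the start of the gene in kb (horizontal axis), in pro-B-like nuclei (purple circles) and NeuP-like nuclei (green triangles). Symbols are the mean of 2 libraries, vertical lines join the libraries and dotted lines mark 2-fold. In pro-B-like nuclei, 19 of 145 peaks pass the upper line in both libraries.

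Summed over its window, accessibility followed the RNA across the 14 lineages for Tcf4 (r = 0.87 and 0.79) and Tcf12 (0.77 and 0.74), less for Tcf3 (0.25 and 0.51) and not for Id2 (0.16 and -0.19). At the promoter, r was 0.70 and 0.66 for Tcf4, 0.64 and 0.66 for Tcf12, 0.38 and 0.69 for Tcf3 and 0.56 and 0.16 for Id2. The Id2 values rest on few UMIs per lineage, and the 14 lineages leave out pro-NK/T-like and cDCP-like nuclei, where its RNA was highest. Whether accessibility follows Id2 RNA can therefore not be read from them. The Tcf4 window held 392 and 323 RPM in the Cacna2d1/Kcnh8 cluster and 133 and 148 RPM in NeuP-like nuclei. In pDCP-like nuclei it held 260 and 391 RPM, 0.16 and 0.86 on the log2 scale above the other nuclei, beside a log2 ratio of 3.37 and 3.24 for the RNA.

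E-box letters were counted in the central 300 bases of all tested peaks, on both strands. CAGCTG reads the same on both strands, and CAGGTG reads CACCTG on the other. Of all tested peaks, 20.2% held CAGCTG and 19.7% held CAGGTG. Peaks that were higher in the Cacna2d1/Kcnh8 cluster held them in 42.03% and 37.3%, those higher in B cell-like nuclei in 38.4% and 35.7%, in pDCP-like nuclei in 37.5% and 33.7%, in pro-B-like nuclei in 36.1% and 32.5%, and in the Cmah/Mn1 cluster in 34.2% and 34.4%. In the other lineages CAGCTG lay between 11.2% and 24.5%. The control letters GAGCTC, which have the same base composition as CAGCTG, stood at 10.3% of all peaks and between 6.74% and 11.1% in the lineages with at least 200 higher peaks.

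The lineages whose higher peaks held E-box letters most often were those with the highest Tcf4 RNA, except that the Clec9a/Epha2 cluster, at 843 and 542 CPM of Tcf4, had CAGCTG in 23.7%. Over 18 lineages the CAGCTG share had r = 0.81 with the Tcf4 level, 0.76 with Tcf3, 0.75 with Tcf12 and -0.41 with Id2, and the control letters had 0.28 with Tcf4, 0.33 with Tcf3, 0.46 with Tcf12 and 0.14 with Id2. The CAGGTG share had 0.75 with Tcf4, 0.64 with Tcf3, 0.60 with Tcf12 and -0.07 with Id2. The lineages share libraries and peaks, and their median GC content ran from 44.7% to 50.7% over the same sets, so these are descriptions. pDCP-like nuclei differed from the B lineage in the EBF letters TCCCNNGGGA, which stood at 0.53% of their higher peaks, against 7.47% in pro-B-like nuclei and 1.09% of all peaks. EryP-like peaks held the GATA letters in 46.4% and CAGCTG in 24.5%. Of the 19 peaks of the 6 genes that were higher in pro-B-like nuclei, 3 held CAGCTG (15.8%) and 6 held CAGGTG (31.6%), beside 36.1% and 32.5% of all peaks higher there and 20.2% and 19.7% of all tested peaks.

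**Figure D4:**
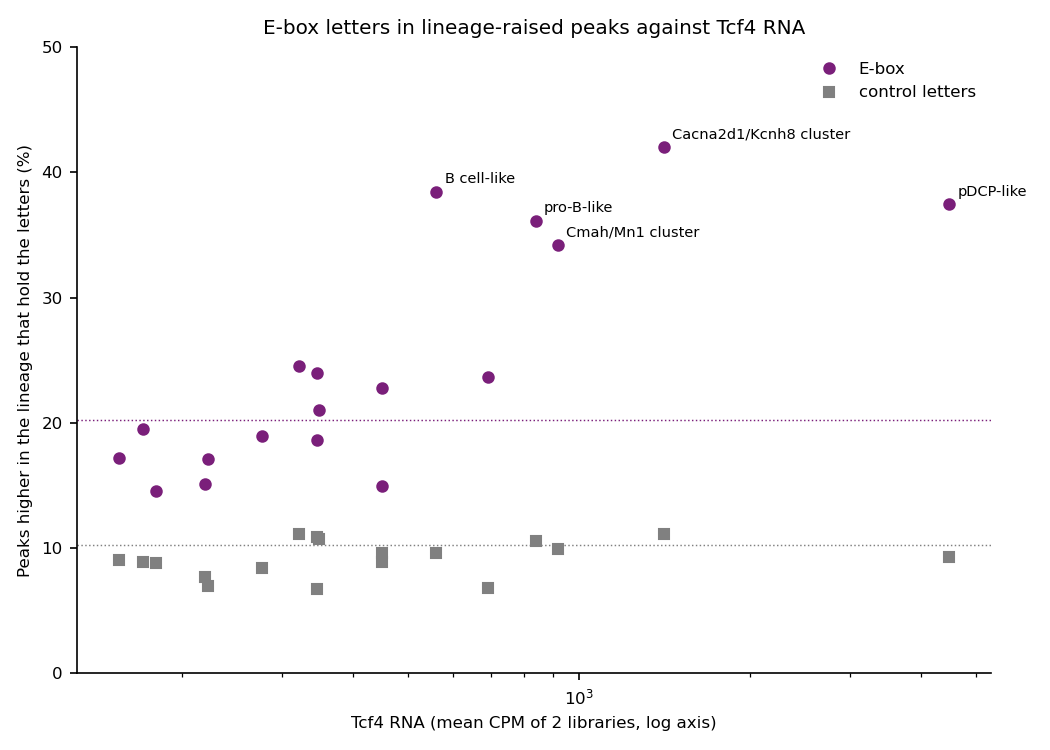
Percent of the peaks higher in a lineage that hold the E-box letters CAGCTG (purple circles) or the control letters GAGCTC (grey squares), against the mean Tcf4 RNA of 2 libraries in CPM on a log axis, for lineages with at least 200 such peaks. Dotted lines are the shares in all tested peaks, 20.2% and 10.3%. The 5 lineages written beside their points lie between 34.2% and 42.03%, and the control letters stay between 6.74% and 11.1%.

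Known target genes of E proteins in lymphoid cells were mostly higher in pro-B-like nuclei and in the Cacna2d1/Kcnh8 cluster. Of 13 listed, 11 were tested, and 8 were higher in pro-B-like nuclei, beside 4.11% of all genes, and 8 in the Cacna2d1/Kcnh8 cluster, beside 5.77%, with a median log2 ratio of 2.78 and 3.24 beside 0.03 and -0.08 for all genes. In B cell-like nuclei 5 were higher, beside 4.65% of all genes, and 1, Vpreb1, was past the lower limit, beside 11.4%, with a median of 0.84 beside -0.23. Vpreb1 had 3 and 0 UMIs there, and the limit of 0 UMIs in library 2, 86.4 CPM, lay above the 45.9 CPM of the other nuclei, so a lower level was not detectable. Of all genes, 0.801% were lower in B cell-like nuclei with a limit of 3 counts below the other nuclei in both libraries. Ebf1, the factor that commits cells to the B lineage, had a log2 ratio of 3.53 and 4.79 in pro-B-like nuclei. Rag1, which cuts antigen receptor genes, had 1.30 and 1.96 there and 3.99 and 4.66 in the Cacna2d1/Kcnh8 cluster. Foxo1, a factor that induces the Rag genes, had 2.36 and 3.20 and the interleukin-7 receptor gene Il7r 2.38 and 3.40 in pro-B-like nuclei. Ebf1, Rag1, Igll1, Vpreb1 and Cd79a also served as pro-B markers and the target genes were not left out of the clustering, so these values are a description of the lineages and no independent evidence.

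In pDCP-like nuclei, with the most Tcf4 RNA, 0 of the 11 target genes were higher, beside 3.86% of all genes, and 3 were past the lower limit, beside 20.1%, which is near the background. Cdkn1a and Gfi1 had 0 UMIs in both libraries, and the 59.7 and 164.6 CPM that a count of 0 allows lay above the other nuclei, so a lower level was detectable only for Ebf1, beside 0.412% of all genes. In most of the larger lineages outside the B lineage many of the 11 target genes were lower. They were 9 in GMP-like nuclei, beside 4.57% of all genes, 7 in EryP-like nuclei, beside 5.47%, and 10 in MkP-like nuclei, beside 5.16%. The Tnr/Tmem178, Ednrb/Nrg1 and Clec9a/Epha2 clusters had 7 each, beside 4.18%, 4.42% and 3.05%. HSC-like and BaP-like nuclei had 6 each, beside 2.56% and 6.29%, and the Slc24a3/Slco3a1 cluster had 5, beside 2.69%. A limit of 3 counts below the other nuclei in both libraries was then required. HSC-like nuclei then had 5, the Clec9a/Epha2 cluster 6 and BaP-like nuclei 3, beside 2.16%, 2.62% and 1.96%. GMP-like and EryP-like nuclei again had 9 (beside 4.47%) and 7 (beside 4.34%), but MkP-like nuclei had 6 (beside 2.6%). The other 4 there, Rag1, Igll1, Gfi1 and Cd79a, had 0 to 2 UMIs per library, and a lower level was not detectable in at least 1 library. In NeuP-like nuclei 1 was lower, beside 10.9% of all genes, and in the Rab5b/Cmtm3 cluster 1, beside 1.66%. The other nuclei of each comparison include pro-B-like nuclei, in which 8 of the target genes were higher. The counts of lower genes are therefore no independent evidence. Rag1 passed the minimum level only through the B lineage, with means of 35.7 CPM in pro-B-like nuclei and 217 CPM in the Cacna2d1/Kcnh8 cluster. In the other larger lineages it stood between 0 CPM in MkP-like and BaP-like nuclei and 21.7 CPM in the Cmah/Mn1 cluster. Whether each of the other genes would pass without the B lineage was not tested. In GMP-like nuclei 1 was higher, beside 0.86%. This was Gfi1, a repressor needed for granulocytes, at 1.76 and 1.98, which was also 1 of the 6 markers that named the cluster. In the Cmah/Mn1 cluster 3 were higher, beside 2.17% of all genes, and 1 was lower, beside 2.46%. The higher genes were Dntt, which adds bases to antigen receptor joints, at 2.56 and 3.09, Notch1 at 1.87 and 1.91, and Il7r at 1.23 and 2.22, and the lower one was Igll1, a part of the pre-B cell receptor, at -1.67 and -1.09. This cluster stayed unnamed under the naming rule, although all 3 markers listed for MPP4 multipotent progenitors, Flt3, Dntt and Satb1, were raised in it.

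Among partners and cofactors of E proteins, 3 of the tested genes were higher in EryP-like nuclei, beside 3.24% of all genes. Of 12 listed, 7 were tested, and 4 were higher and 2 were lower in at least 1 of the 14 lineages, beside 21.4% and 34.9% of all genes, so the lower count is near the background. Tal1, the partner in red cell progenitors, had a log2 ratio of 2.41 and 1.82 in EryP-like and 2.28 and 1.82 in MkP-like nuclei. Ldb1, the bridging cofactor of the same complex, had 1.79 and 1.71 and the corepressor Cbfa2t3 1.05 and 1.15 in EryP-like nuclei, while Lmo2, its adaptor, was highest in HSC-like nuclei at 2.02 and 1.26. Of the 11 listed receptors and Smads through which BMP and TGF-beta signals reach Id genes, 9 were tested, 2 were higher and 4 were lower in at least 1 lineage, both near the same 21.4% and 34.9% of all genes. The inhibitory Smad7 had 1.84 and 2.12 in the Cmah/Mn1 cluster and the receptor gene Tgfbr2 1.16 and 1.71 in HSC-like nuclei.

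The genes whose levels were most like those of each member across the 14 lineages were named by the mean Pearson r of both libraries on the log2(CPM + 10) scale. For Tcf3 they were Gfra1 (0.887), Akap12 (0.879) and 1700027J07Rik (0.878), for Tcf4 Maml3 (0.926), Cd2ap (0.925) and Med13l (0.897), for Tcf12 Heg1 (0.915), Trim44 (0.908) and Cpsf6 (0.894), and for Id2 Cdk2ap2 (0.801), S100a11 (0.768) and Sec14l1 (0.742). For Id3 they were Cyth1 (0.841), Cd79b (0.838) and Uaca (0.829), and for Id1 Uvssa (0.651), Pip5k1a (0.594) and Vmp1 (0.589), both from few UMIs. The Id2 values rest on few UMIs per lineage as well. Pro-NK/T-like and cDCP-like nuclei, with the most Id2 RNA, are not among the 14 lineages.

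Of the E protein genes, Tcf12 differed between the libraries most often within lineages. In all nuclei, which pool lineages of unequal share in the libraries (pro-B-like nuclei were 13.6% and 5.07%), the log2 ratio of library 2 over library 1 was -0.61 for Tcf3, -0.85 for Tcf4 and -1.18 for Tcf12, and -0.09 (interval -0.54 to 0.36) for Id2. The median gene stood at -0.35, and the ratio fell with gene span, from -0.06 for genes under 10 kb to -0.67 for the 598 genes of 200 kb and over, a class that holds Tcf4 and Tcf12. Tcf12 was lower in library 2 in all 19 lineages with at least 20 UMIs, by -0.41 to -2.04, and its interval lay below 0 in 17 of them. For Tcf4 the ratio was below 0 in 17 of 19 lineages, with the interval below 0 in 9, and NeuP-like nuclei had 0.42. For Tcf3 it was below 0 in 12 of 12 lineages, with the interval below 0 in 0 of them, and NeuP-like nuclei, with too few UMIs to count among these, had 0.98. Against genes of like span in the same lineage, Tcf12 was below their median in 15 of 18 lineages, with its interval below it in 5, while Tcf4 was below it in 3 of 18 and Tcf3 in 8 of 12, with the interval below it in 0 lineages for both. Peak counts in the Tcf12 window did not move with this, with a median log2 ratio of -0.03 across the 14 lineages (range -0.16 to 0.21). No label ties a library to a group, so this difference cannot be told apart from one between the groups.

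**Figure D5:**
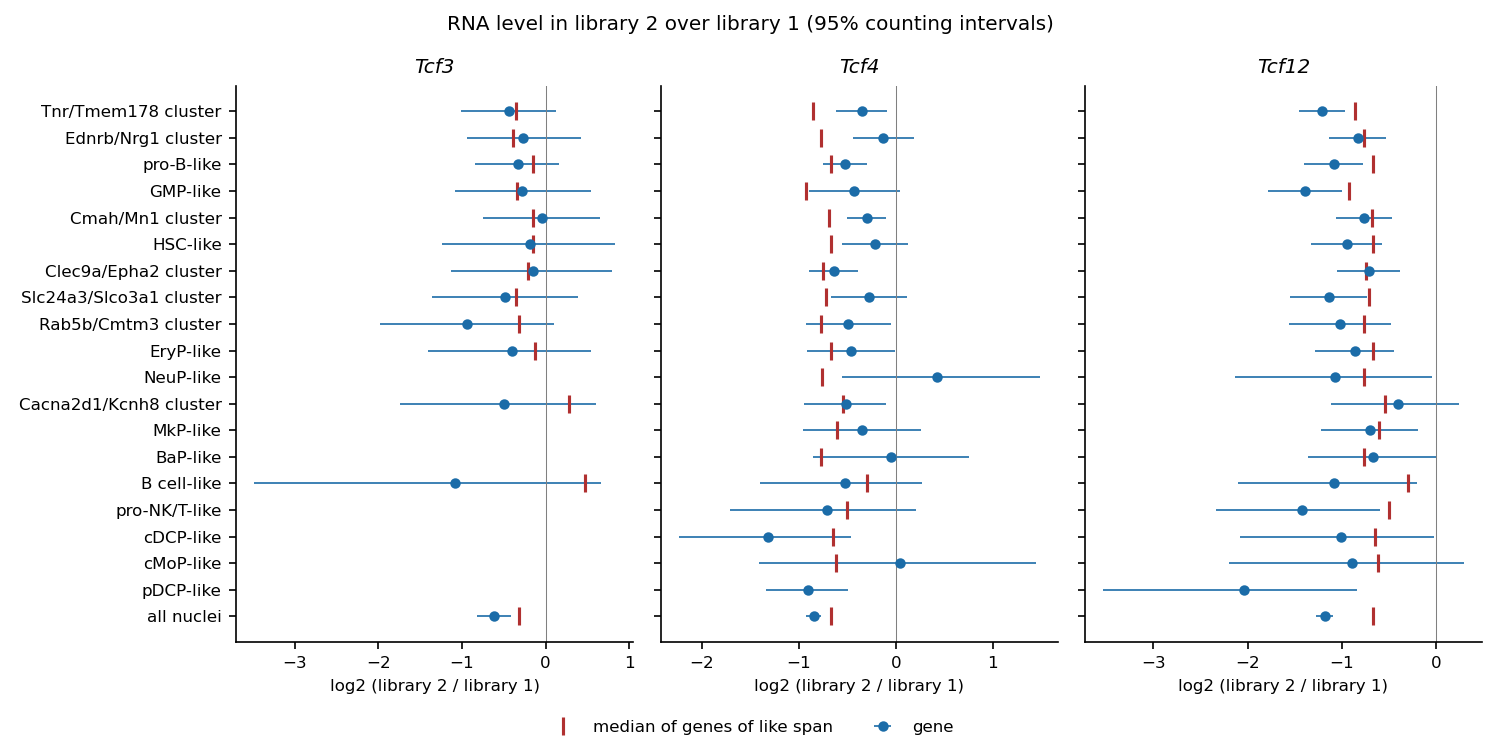
Log2 ratio of the CPM in library 2 over library 1 for Tcf3, Tcf4 and Tcf12 in each lineage with at least 20 UMIs and in all nuclei (blue points, 95% counting intervals), with the median of genes of like span in the same lineage (red marks). Tcf12 lies left of 0 in all 19 lineages shown and left of the red mark in 15 of 18.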

How the data were processed

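The authors deposited 1 matrix of whole-number counts, RNA UMIs per gene and ATAC counts per peak, for all barcodes of both libraries. Per the labels and the submitters' processing notes it was made with Cell Ranger ARC 2.0.0 on GRCm38, and Seurat 4.0.3 and Signac 1.3.0 are also named there. Of the peak counts above 0, 82.5% were even, so accessibility intervals were computed on pairs of counts.

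Nuclei with at least 200 genes and 1000 to 50000 peak counts were kept. They were clustered on RNA and ATAC together (weighted nearest neighbours, Seurat 5.3.0 in R 4.3.3, 2000 variable genes, 30 principal components, ATAC components 2 to 30, resolution 0.8), without the 6 genes and their peaks. A doublet caller (scrublet in scanpy 1.11.5) marked 3 of 13619 nuclei, 0.022%, and so had not worked. Removing the top 8% of its scores served as an alternative. Counts were summed per lineage and library. UMIs of the ribosomal locus were left out of CPM, and the pseudocount was 1. Poisson, Clopper-Pearson and conditional binomial 95% intervals came from scipy 1.17.1. A count of 0 was given a limit of 3 counts. The procedure was also run on simulated Poisson counts at the real depths, and the outcome is not given here. The simulation held no RNA of other lineages, no difference in levels between libraries and no spread between mice. Annotation was GENCODE M21, which matched 99.6% of gene IDs. Lineages with at least 100 nuclei in each library were used for the main calls, and the limit of 30 was chosen after seeing the data.

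Named peaks were the promoter peak of each gene and up to 3 more, those called in the largest number of lineages in either direction, and others are marked where they are given. Genes and lists were chosen with earlier results of these data known. Alternatives were a higher gene minimum per nucleus, another resolution, pseudocount, scaling and minimum level, the 6 genes kept in the clustering, no correction between libraries, halved ATAC counts, narrower windows, thinning to 500 UMIs and the Id share without Tcf4 and Tcf12.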

Additional observations from a re-analysis of the deposited data

How the results depend on the processing

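Called pairs were recomputed without Tcf3 in cDCP-like and Id2 in Tnr/Tmem178, Slc24a3/Slco3a1 and pDCP-like nuclei, which were lower calls on few UMIs. Of 162 log2 ratios recomputed under 9 alternatives, 160 kept their direction, 156 stayed past 2-fold in that direction and 152 lay within the counting interval of the reported value. The exceptions in direction came from requiring at least 500 genes per nucleus, which left 64 and 6 nuclei in the Cacna2d1/Kcnh8 cluster, 26 and 35 NeuP-like and 34 and 3 pDCP-like nuclei. There, in library 2, Tcf3 turned to -5.83 in the Cacna2d1/Kcnh8 cluster and Id2 to -3.74 in NeuP-like nuclei. No UMI of the gene was left in either case, so a lower level was not detectable. Under the same setting Tcf12 in NeuP-like nuclei stood at -0.26 and -0.60, and in library 2 Tcf3 in pro-B-like nuclei at 0.85, Tcf4 in the Cacna2d1/Kcnh8 cluster at 0.80 and in pDCP-like nuclei at 1.60, and Id2 in pro-NK/T-like nuclei at 2.94. A pseudocount of 10 gave 3.58 for Id2 in pro-NK/T-like nuclei in library 1, and resolution 0.4 gave 3.14 for Tcf4 in pDCP-like nuclei in library 1. The 8 pairs of gene and lineage past 2-fold became 14 of 84 at a minimum mean of 1 CPM, 16.7% beside 13.9% over all genes, and 13 at 30 nuclei, the latter chosen after seeing the data. Beside these alternatives, thinning to 500 in place of 1000 UMIs moved 7 of 18 shares of nuclei beyond their interval, and leaving out Tcf4 and Tcf12 moved all 10 Id shares. With CPM over all genes, the library ratio was -0.90 for Tcf3, -1.13 for Tcf4 and -1.47 for Tcf12. No paired analysis was possible because the labels give no replicate numbers and each group is 1 sample. The few UMIs of Id genes limit what could be seen in small lineages.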
